A study of Homo sapiens with 8 samples.

Results

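Of 15469 noncoding RNA loci with values in both cell lines, 279 were expressed in untreated HepG2 cells and nearly silent in untreated LM3 cells. They were selected on measured vehicle levels: a mean over the 2 HepG2 vehicle libraries of at least 0.5 FPKM, a fragment count scaled to the length of the transcript and the size of the library, and a mean over the 2 LM3 vehicle libraries under 0.1 FPKM. HepG2 and LM3 are human hepatocellular carcinoma cell lines per the labels. Each line was given the vehicle DMSO or JQ1, an inhibitor that keeps BET bromodomain proteins off acetylated histones, with 2 libraries in each of the 4 groups. The labels give neither dose nor time, and they name no separate cultures behind the replicates. A p-value here therefore reflects only how far these libraries differ, and that spread may be technical. Libraries were made from total RNA after ribosomal RNA was removed and were sequenced from both ends.

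Long noncoding RNAs are often made in far fewer cell types than messenger RNAs. Many are transcribed from enhancers, beside the genes of lineage transcription factors or antisense to coding genes, and some carry microRNAs in their introns or exons. BET proteins recruit transcription elongation factors to acetylated enhancers and promoters, and inhibitors such as JQ1 are known to lower transcription from strong enhancers.

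MicroRNA genes lay inside 3 of the 279 loci on the same strand, and their mature sequences are shown because they are the best understood products such loci can give. The libraries measured the long host transcripts and not the small RNAs. The sequences are from RefSeq (GRCh38.p14), and the capitals mark the seed, bases 2 to 8, which pairs with target messenger RNAs. MIR137HG and MIR181A1HG are annotated hosts on chromosome 1, and LXLOC_034929 (chromosome 20, 58817132 to 58850903, minus strand) overlaps GNAS-AS1, the antisense RNA of the imprinted GNAS locus. Of the sequences below, miR-181a-5p and miR-181b-5p share the seed ACAUUCA.
hsa-miR-137-3p in MIR137HG: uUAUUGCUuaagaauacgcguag
hsa-miR-137-5p in MIR137HG: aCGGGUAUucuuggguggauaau
hsa-miR-181a-5p in MIR181A1HG: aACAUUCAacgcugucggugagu
hsa-miR-181b-5p in MIR181A1HG: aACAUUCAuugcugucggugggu
hsa-miR-296-5p in LXLOC_034929: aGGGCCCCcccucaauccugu
hsa-miR-298 in LXLOC_034929: aGCAGAAGcagggagguucuccca

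LXLOC_034929 was at 3.50 and 3.70 FPKM in replicates 1 and 2 of HepG2 vehicle, and at 3.60 and 3.82 FPKM with JQ1. In LM3 it was at 0.01 and 0.10 FPKM with vehicle and at 0.01 and 0.07 FPKM with JQ1. MIR137HG, whose microRNA is best known from neurons and which overlaps DPYD on the same strand, was at 0.63 and 0.66 FPKM in HepG2 vehicle, at 0.75 and 0.72 FPKM in HepG2 JQ1 and at no more than 0.01 FPKM in any LM3 library. The host of the miR-181 pair, MIR181A1HG, was at 0.72 and 0.82 FPKM with vehicle and at 0.59 and 0.62 FPKM with JQ1 in HepG2, and again no higher than 0.01 FPKM in LM3. In limma, which tested JQ1 against vehicle within HepG2 over all loci that passed a filter on low values, none of the 3 hosts was called (adjusted p = 0.768, 0.428 and 0.207), though the JQ1 and vehicle libraries did not overlap for MIR137HG and MIR181A1HG.

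RefSeq promoter sequences, 250 bases before to 50 bases after a start, were found for 29 starts of 26 of the loci. Short motifs of liver transcription factors and of the TATA box were searched on both strands. The FOXA motif TGTTTAC was in 1 of the 29 (3.45%), against 3.42% of all 35116 promoters in the table, and the TATA motif TATAAA was in 2 (6.90%), against 11.5%. The HNF4 motif CAAAGTCCA, found in 0.384% of all promoters, and the palindromic HNF1 motif, found in 2 of them, were in none of the 29. A match describes letters in this window and is not a binding site. The promoters that held a match are shown with the matched letters in capitals. They belong to LINC00261, which adjoins the gene of the liver and gut transcription factor FOXA2 and holds both a FOXA and a TATA match (GRCh38.p14 chromosome 20, 22578593 to 22578892, minus strand), and to LINC01518 with 1 TATA match (chromosome 10, 42691710 to 42692009, minus strand). All 3 matches lie on the other strand, so in the printed strand FOXA reads GTAAACA and TATA reads TTTATA.
LINC00261 promoter: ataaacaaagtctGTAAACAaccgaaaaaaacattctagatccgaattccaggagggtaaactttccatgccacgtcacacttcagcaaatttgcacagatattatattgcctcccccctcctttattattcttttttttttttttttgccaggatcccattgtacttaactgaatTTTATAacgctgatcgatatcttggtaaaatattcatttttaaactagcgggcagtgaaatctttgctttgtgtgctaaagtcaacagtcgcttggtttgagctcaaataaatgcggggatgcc
LINC01518 promoter: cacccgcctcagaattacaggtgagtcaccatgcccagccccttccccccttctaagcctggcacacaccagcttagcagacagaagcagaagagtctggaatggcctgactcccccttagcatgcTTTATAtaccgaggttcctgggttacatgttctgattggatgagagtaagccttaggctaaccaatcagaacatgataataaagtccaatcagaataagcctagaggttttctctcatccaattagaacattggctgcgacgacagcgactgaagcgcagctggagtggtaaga

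Most of the 279 loci had no entry in public annotation. LXLOC names made up 211 of them (75.6%), against 38.0% of all loci with values and 65.7% of the 5537 other loci at 0.5 FPKM or more in HepG2 vehicle. On the same strand, 32 of the 211 overlapped a noncoding gene of GENCODE release 29. The remaining 68 had Ensembl IDs, 30 with a gene symbol, 31 with a clone-based GENCODE 29 name only and 7 with neither. Their median length was 4123 bases. They stood apart from coding genes more often than others did: 135 (48.4%) lay over 50 kb from any coding gene, against 15.5% of all loci with values and 11.2% of the other loci expressed in HepG2. Another 40 lay antisense over a coding gene, 36 on the same strand over one, 11 within 10 kb after one on the same strand, and 51 elsewhere within 50 kb. Alternate MHC assemblies and scaffolds outside the assembled chromosomes held 3 loci each. Neighbouring loci weigh on these shares: taking 1 locus from each cluster of neighbours (defined below), 28.2% of 156 lay over 50 kb from a coding gene. Of the same 156, 60.9% had LXLOC names, which is under the 65.7% of the other loci expressed in HepG2. Values of the 66 loci that overlap another on the same strand, of the 40 antisense loci and of those with near-identical copies are uncertain, since how reads were counted, and whether by strand, is not stated.

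**Figure D1:**
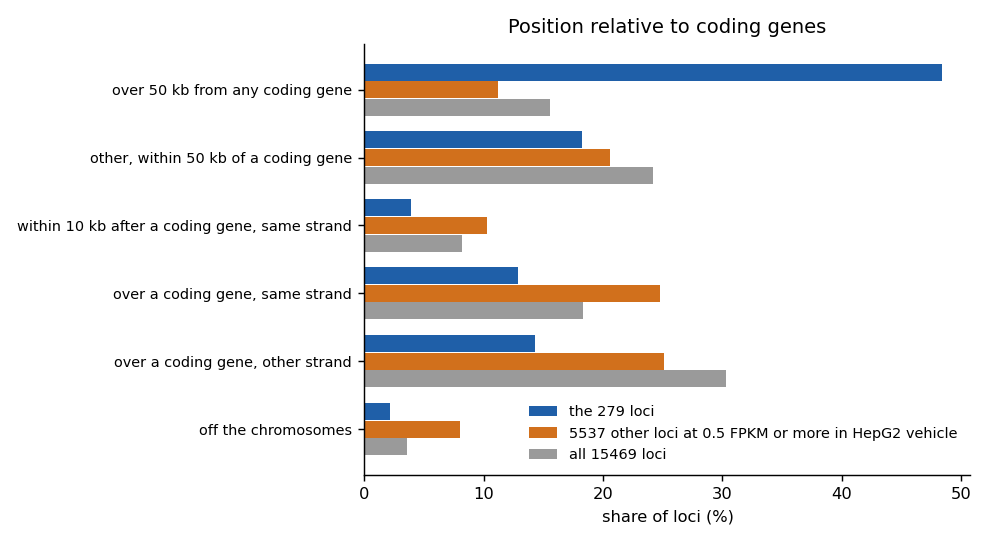
Bars give the share of loci (%) in each class of position relative to GENCODE 29 coding genes, for the 279 loci, the 5537 other loci at 0.5 FPKM or more in HepG2 vehicle, and all 15469 loci with values. The class over 50 kb from any coding gene holds 48.4% of the 279 loci, against 11.2% and 15.5%.

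As chosen, the loci were low in absolute terms in HepG2. Their vehicle means ran from 0.5 to 10.9 FPKM with a median of 0.92 FPKM; 147 were under 1 FPKM, 94 between 1 and 2 FPKM, 38 at 2 FPKM or more and 3 at 5 FPKM or more. In LM3 vehicle the median mean was 0.02 FPKM, and 66 loci were listed at 0 in both vehicle libraries. The thresholds passed through a continuum. STIM2-AS1 and AC011461.1 entered at 0.505 and 0.5 FPKM in HepG2 vehicle, while AC132872.3 and AC024901.1 were left out at 0.495 and 0.49 FPKM. FOXD3-AS1 and LINC02985 entered at 0.095 FPKM in LM3 vehicle, and LINC01895 and LNC-LBCS were left out at 0.1 and 0.105 FPKM. In 45 loci a HepG2 vehicle library was under 0.5 FPKM, and in 54 an LM3 vehicle library reached 0.1 FPKM. LXLOC_058290, on a scaffold outside the assembled chromosomes, was uneven, at 5.59 FPKM in vehicle replicate 1 and 0.46 FPKM in replicate 2.

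The JQ1 libraries took no part in the choice and give a view of the same loci in other libraries. In LM3, 260 of the 279 remained under 0.1 FPKM with JQ1 and 43 were listed at 0 in all 4 LM3 libraries. In HepG2, 165 were at 0.5 FPKM or more with JQ1 (59.1%), beside 88.2% of the 5537 other loci at 0.5 FPKM or more in HepG2 vehicle. These sets were not matched for vehicle level. Of the 279, 153 met both limits in the JQ1 libraries. The 279 loci summed to 369 and 335 FPKM with vehicle and to 239 and 259 FPKM with JQ1 in HepG2. The LM3 sums were 5.24 and 11.7 FPKM with vehicle and 8.16 and 12.2 FPKM with JQ1. The LM3 libraries were not alike in how many of the loci were above 0: 112 and 197 with vehicle and 89 and 126 with JQ1, so vehicle replicate 2 stood highest. The tables of the 2 lines may have been normalized separately, and these levels stand side by side with no test between lines. In bulk RNA, fewer cells that express a locus and less RNA per cell cannot be told apart.

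**Figure D2:**
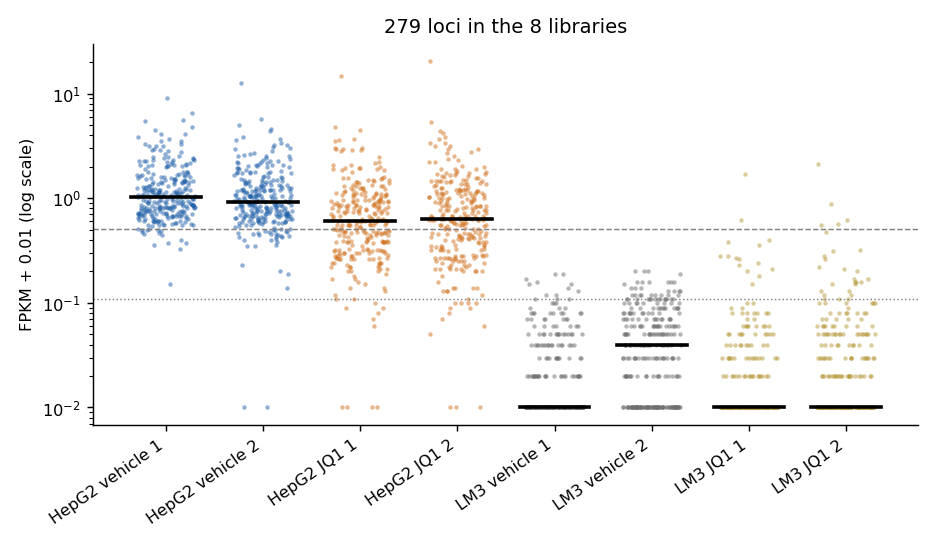
Each point is 1 of the 279 loci in 1 of the 8 libraries, as FPKM + 0.01 on a log scale, and black bars are medians; the dashed and dotted lines mark 0.5 and 0.1 FPKM, which the HepG2 and LM3 vehicle means had to meet. Points of the HepG2 JQ1 libraries reach lower than those of the vehicle libraries, and most LM3 points lie at or near 0.

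Over all loci, the libraries summed to between 29369 and 35742 FPKM and had 11230 to 12332 loci above 0, and read totals are not known. Of 13 lncRNAs listed as hepatocyte markers, 9 had values. Of these, LINC01485 and LINC00261 are among the 279 and were chosen for their difference between the lines. Of the other 7, the same number, 3, reached 0.5 FPKM in HepG2 vehicle and in LM3 vehicle: LINC02428, CPS1-IT1 and HULC. Without CPS1-IT1, which was at 6.84 and 6.79 FPKM in HepG2 vehicle and at 1.34 and 1.41 FPKM in LM3 vehicle, the others summed to 1.58 and 1.84 FPKM in HepG2 vehicle and to 1.40 and 1.33 FPKM in LM3 vehicle. HNF4A-AS1 and LINC01018 were at 0.04 FPKM or less in all HepG2 and LM3 libraries. Coding markers had no values, so the labelled cell type was checked no further.

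Named loci high in HepG2 vehicle included AC015922.3 and FRGCA. AC015922.3 (chromosome 17, 15789016 to 15789705, plus strand) was at 3.50 and 3.23 FPKM with vehicle, at 1.92 and 2.92 FPKM with JQ1, and at 0 in every LM3 library. FRGCA (chromosome 21, 43140523 to 43141092, minus strand) was at 3.16 and 2.26 FPKM with vehicle, at 1.49 and 1.46 FPKM with JQ1, and also at 0 in LM3. The HepG2 groups did not overlap for either locus. FRGCA was called in limma (log2 fold change -0.69, SE 0.16, adjusted p = 0.0416) and AC015922.3 was not (limma adjusted p = 0.168). Among LXLOC loci, LXLOC_007919 and LXLOC_007920, adjacent on chromosome 11 (4255357 to 4261359, plus strand), were at 6.53 and 5.75 FPKM and at 5.45 and 5.02 FPKM with vehicle. With JQ1 they were at 3.49 and 3.70 FPKM and at 3.04 and 3.36 FPKM, so both fell, by 0.70 and 0.63 on the log2 scale (limma adjusted p = 0.0138 and 0.0153). LXLOC_053399, which overlaps LINC02055, was also among the highest, at 4.77 and 4.57 FPKM with vehicle and at 4.83 and 5.37 FPKM with JQ1. Its JQ1 libraries lay above both vehicle libraries, and it was not called (log2 fold change 0.11, limma adjusted p = 0.398).

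With JQ1 in HepG2, 88 of the 231 loci that were tested fell and 6 rose, where the limma fit covered the 5906 loci that averaged 0.5 FPKM or more over the 4 HepG2 libraries. Over all loci tested, 25.1% were called, 14.2% lower and 10.8% higher. The vehicle libraries that chose the loci are also the baseline here, and a filter on the mean keeps a low locus out when it falls, so these counts describe the loci and support no direction. A filter on the vehicle mean alone lets all 279 in, and 112 were then lower and 6 higher (15.7% and 7.87% of all 5816 loci tested). The median log2 fold change, on the scale of log2(FPKM + 0.5), was -0.33 over the 231 loci and -0.0056 over all 5906; with all 279 entered it was -0.44. By the libraries alone, JQ1 and vehicle did not overlap in 206 of the 279, 176 lower and 30 higher, where 38.9% and 27.0% of loci at 0.5 FPKM or more in HepG2 vehicle did so in those directions, and 24.4% and 20.4% of all loci with values. The fall was at least 2-fold on this scale for 29 of the 231 loci (12.6%), beside 2.71% of all 5906.

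The share called lower differed with the level. Between 0.5 and 1 FPKM in vehicle, 19 of 99 tested loci were lower (19.2%), beside 6.51% of the other HepG2 loci of that level. The filter kept 48 loci of this level out; with the filter on the vehicle mean, 43 of 147 were lower (29.3%), beside 8.33%. Between 1 and 2 FPKM it was 49 of 94 (52.1%) beside 16.4%, and at 2 FPKM or more 20 of 38 (52.6%) beside 21.0%. LXLOC loci and Ensembl loci had similar shares, 73 of 188 (38.8%) and 15 of 43 (34.9%). Among the other HepG2 loci, 13.5% of LXLOC loci and 15.7% of Ensembl loci were lower. No difference between LXLOC and Ensembl loci was tested. Leaving out single libraries changed the counts: 28 and 40 of the loci were called without vehicle replicate 1 or 2, and 0 without JQ1 replicate 1 or 2, where limma had 111 and 123 of them at an unadjusted p under 0.05 and called 0 of all loci.

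**Figure D3:**
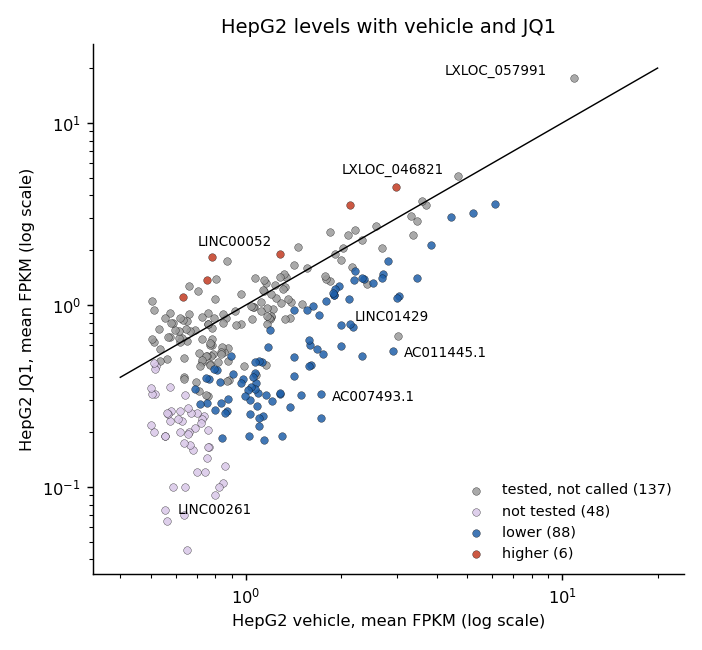
Each point is 1 of the 279 loci by its mean FPKM in the 2 HepG2 vehicle libraries (x, log scale) and the 2 HepG2 JQ1 libraries (y, log scale), coloured by the limma result, with the line of equal level. The 88 loci called lower lie below the line and the 6 called higher above it, and the 48 that were not tested lie low on the JQ1 axis.

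Several of the named falls were large. AC011445.1 (chromosome 19, 39314651 to 39320858, minus strand), which overlaps the neuronal adhesion gene LRFN1 on the same strand, was at 3.26 and 2.55 FPKM with vehicle and at 0.47 and 0.64 FPKM with JQ1 (log2 fold change -1.69, SE 0.15, limma adjusted p = 0.00823). AC007493.1 (chromosome 16, 50407184 to 50546347, plus strand), 1983 bases from NKD1, a Wnt target that restrains Wnt signalling, went from 1.66 and 1.80 to 0.30 and 0.35 FPKM (log2 fold change -1.43, SE 0.10, limma adjusted p = 0.00576). HISLA (chromosome 14, 88024519 to 88098025, plus strand) went from 1.41 and 1.58 to 0.47 and 0.17 FPKM (log2 fold change -1.31, SE 0.20, limma adjusted p = 0.0179). In all 3 the JQ1 libraries lay well below the vehicle libraries, and LM3 held no more than 0.09 FPKM in any library. LINC01429 (chromosome 20, 51831797 to 51862912, minus strand), 29277 bases from SALL4, a fetal liver and stem cell transcription factor gene, fell from 2.05 and 1.93 to 0.73 and 0.83 FPKM (log2 fold change -0.96, SE 0.10, limma adjusted p = 0.00864) and was at 0 in every LM3 library. LINC02958, 1532 bases from the laminin gene LAMA3, fell from 1.12 and 1.06 to 0.25 and 0.41 FPKM (-0.94, limma adjusted p = 0.0141). AC005225.2, over HEATR4 and antisense to acyl-CoA thioesterase genes, fell from 1.59 and 1.60 to 0.67 and 0.53 FPKM (-0.93, limma adjusted p = 0.0102).

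Further falls with a symbol were smaller. FAM201A, antisense to ANKRD18A, went from 2.62 and 2.40 to 1.20 and 1.44 FPKM, and LINC01139 from 2.49 and 2.16 to 1.48 and 1.32 FPKM. TENM3-AS1, antisense to the teneurin gene TENM3, went from 1.67 and 1.72 to 1.04 and 0.71 FPKM. The groups did not overlap in any of these 3, and limma called them at adjusted p = 0.0158, 0.0254 and 0.0344. SLC25A34-AS1, antisense to a mitochondrial carrier gene, was at 2.33 and 2.50 FPKM with vehicle and at 1.01 and 1.61 FPKM with JQ1 and was not called (limma adjusted p = 0.0547). Among tested LXLOC loci, the largest falls on the log2(FPKM + 0.5) scale were those of LXLOC_043100, which overlaps SORBS2 on the same strand, from 2.01 and 1.45 to 0.23 and 0.25 FPKM (log2 fold change -1.58), and of LXLOC_019848 on chromosome 15, from 2.29 and 2.36 to 0.49 and 0.56 FPKM (-1.46). Both were called (limma adjusted p = 0.00836 and 0.0055). Of 54 called loci followed through the alternatives, 32 lost the call in limma without a filter on low values, among them AC011445.1, HISLA, FRGCA, FAM201A, LINC01139, TENM3-AS1, LINC02958, LINC01485, AC005225.2, LXLOC_043100, LXLOC_007919 and LXLOC_007920, and all 54 lost it without either JQ1 library. TENM3-AS1 also lost it with centred or quantile-normalized libraries.

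The hepatocyte list gave 2 of the 279 loci, and 20 of its 31 lncRNAs had values. LINC01485 (chromosome 5, 173778527 to 173809039, minus strand) was at 0.98 and 0.94 FPKM with vehicle and at 0.28 and 0.46 FPKM with JQ1 in HepG2 (log2 fold change -0.75, SE 0.14, limma adjusted p = 0.0242). LINC00261 (chromosome 20, 22547671 to 22578642, minus strand), whose promoter is printed above, was at 0.48 and 0.64 FPKM with vehicle and at 0.05 and 0.08 FPKM with JQ1. Its mean over the 4 libraries kept it out of the main test; with the filter on the vehicle mean it was called lower (log2 fold change -0.90, limma adjusted p = 0.0260). Its body overlaps a gene model that GENCODE 29 lists as coding, AL121722.1. From the HOX list, HOXB-AS1 was the 1 of 18 with values, at 0.95 and 1.41 FPKM with vehicle and at 0.86 and 0.83 FPKM with JQ1, and from the pluripotency and germline list LINC01518 was the 1 of 11, at 1.29 and 1.62 against 2.17 and 1.97 FPKM. Limma called neither (adjusted p = 0.225 and 0.0779). The lists of imprinted, neural, immune and stromal lncRNAs, with 13, 11, 12 and 11 measured, gave no locus. All these lists hold gene symbols, which the 211 LXLOC loci lack, so those loci could not be matched to any list.

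Coding genes on the liver, liver cancer and developmental lists lay within 50 kb of 6 loci (2.15%), against 1.16% of all loci with values and 0.903% of the other loci in HepG2. Besides LINC01429, AC007493.1 and LINC00261 they were LXLOC_034878, LXLOC_040952 and LXLOC_060644. LXLOC_040952 overlaps UGT2B7, which codes for a glucuronidation enzyme of the liver, on the same strand and went from 1.06 and 1.25 to 0.31 and 0.33 FPKM (log2 fold change -1.01, limma adjusted p = 0.0091). LXLOC_060644, inside GPC3, the gene of a cell surface proteoglycan known from liver cancer, was at 2.54 and 2.12 FPKM with vehicle and 1.84 and 2.72 FPKM with JQ1, with overlapping groups. LXLOC_034878, near SALL4 like LINC01429, was at 1.45 and 2.14 against 1.11 and 1.68 FPKM, and its groups overlapped as well. LXLOC_040952 and LXLOC_060644 lie on the strand of their coding gene, as do MIR137HG, AC011445.1, LXLOC_043100, AC005225.2, LXLOC_014668, LXLOC_046821 and LXLOC_046822, and reads of that gene's own transcripts cannot be told apart from theirs.

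With JQ1, 5 loci were under 0.1 FPKM in HepG2; they were picked out after their values were seen. Besides LINC00261 they were LINC01173 (0.73 and 0.57 FPKM with vehicle, 0 and 0.09 FPKM with JQ1), HECW2-AS1 (0.74 and 0.53 against 0.10 and 0.04 FPKM), LXLOC_049706 and LXLOC_048930. HECW2-AS1 is antisense to the ubiquitin ligase gene HECW2. None of the 5 entered the main test.

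The 6 loci that rose with JQ1 in HepG2 were LINC00052 and 5 LXLOC loci. LINC00052 (chromosome 15, 87576929 to 87579866, plus strand), 279885 bases from the neurotrophin receptor gene NTRK3, went from 0.83 and 0.73 to 1.86 and 1.80 FPKM (log2 fold change 0.87, SE 0.095, limma adjusted p = 0.00977). It was at 0 and 0.08 FPKM in LM3 vehicle and at 0.17 and 0.15 FPKM in LM3 JQ1. LM3 vehicle was held under 0.1 FPKM by the choice of loci, so the higher JQ1 libraries in LM3 are a description only. Of all loci with values, 16.8% had LM3 JQ1 libraries above both vehicle libraries. LXLOC_046821 and LXLOC_046822, both over the mitochondrial carrier gene SLC25A27 on chromosome 6 and overlapping each other, went from 3.13 and 2.82 to 4.49 and 4.42 FPKM and from 2.02 and 2.25 to 3.65 and 3.40 FPKM (limma adjusted p = 0.0209 and 0.0164). LXLOC_043338, which overlaps the p53-induced lncRNA gene PURPL on the same strand, went from 1.24 and 1.31 to 1.92 and 1.88 FPKM. LXLOC_014668, over the glypican gene GPC5, went from 0.66 and 0.60 to 1.06 and 1.14 FPKM, and LXLOC_034590 from 0.73 and 0.77 to 1.59 and 1.16 FPKM. These last 3 were called at limma adjusted p = 0.0292, 0.0251 and 0.0475. LXLOC_034590 lost its call with centred or quantile-normalized libraries, with a pseudocount of 1 and without a filter on low values, and LXLOC_046821 and LXLOC_046822 lost theirs without a filter on low values.

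**Figure D4:**
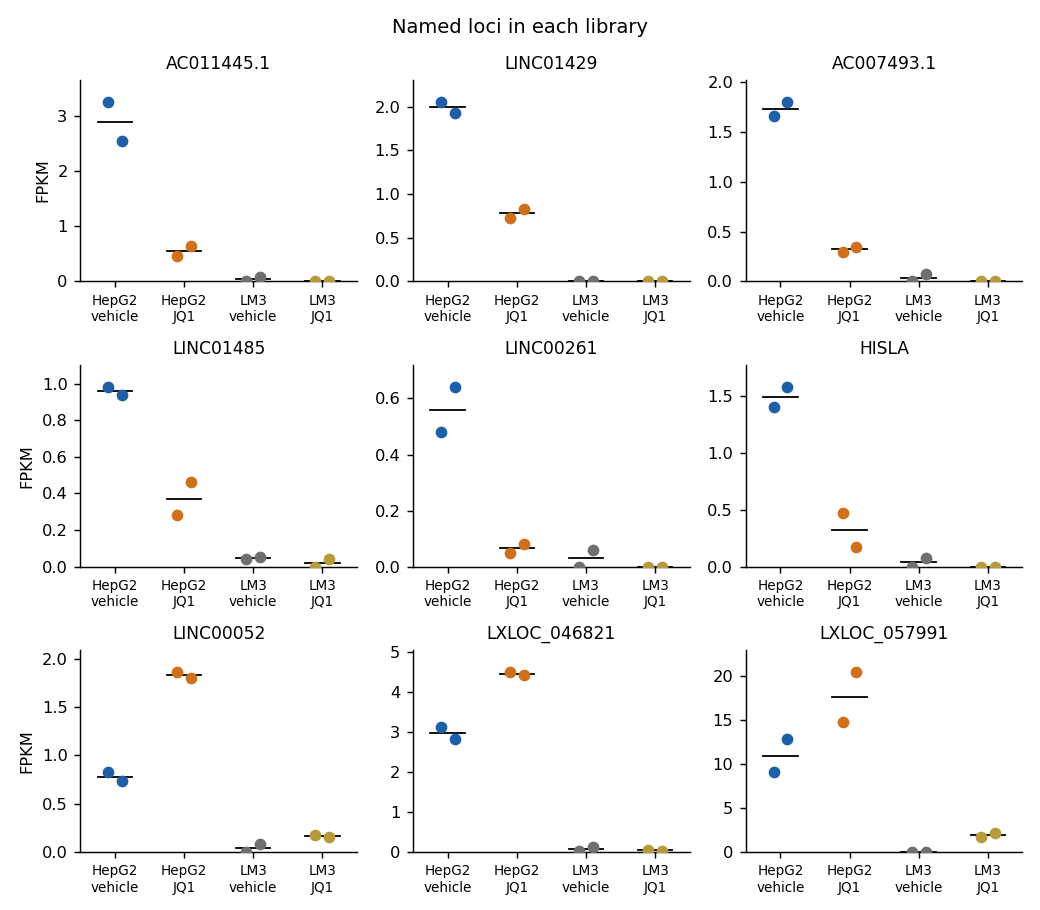
Points are the FPKM of 9 loci in each library, by line and treatment, with black bars at the mean of the 2 libraries of a group; each panel has its own axis from 0. AC011445.1, LINC01429, AC007493.1, LINC01485, LINC00261 and HISLA are lower with JQ1 in HepG2, LINC00052 and LXLOC_046821 are higher, and LXLOC_057991 is at 0 in LM3 vehicle and at 1.71 and 2.11 FPKM in LM3 JQ1.

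In LM3 the filter left 1 of the 279 loci to test. With vehicle under 0.1 FPKM by choice, a locus could pass this filter only through high JQ1 libraries, so its direction was fixed beforehand and its fold change is a description. It was called higher, where 23.3% of the 6474 loci tested were called and 7.92% were higher. LXLOC_057991 lies on the alternate MHC assembly CHR_HSCHR6_MHC_DBB_CTG1 (31516996 to 31517399, minus strand) and was the highest of the 279 in HepG2, at 9.08 and 12.8 FPKM with vehicle and 14.7 and 20.4 FPKM with JQ1 (log2 fold change 0.66, SE 0.23, limma adjusted p = 0.104). In LM3 it was listed at 0 in both vehicle libraries and was at 1.71 and 2.11 FPKM with JQ1 (log2 fold change 2.26, SE 0.14, limma adjusted p = 0.00565). Leaving out any 1 of the 4 LM3 libraries ended this call. Reads of alternate MHC assemblies can also fit the chromosome 6 copy, so the level of this locus is uncertain. AC005884.2, antisense over BCAS3, was the other locus that reached a mean of 0.5 FPKM in LM3 JQ1, at 0.61 and 0.87 FPKM against 0 and 0.15 FPKM with vehicle. In HepG2 it was at 0.14 and 1.18 FPKM with vehicle and at 0 and 0.40 FPKM with JQ1, with overlapping groups. Of the 19 loci at 0.1 FPKM or more in LM3 JQ1, 12 had JQ1 libraries above both vehicle libraries and 7 had overlapping groups. With vehicle means under 0.1 FPKM by choice, none of the 19 could be lower with JQ1, so their direction was fixed as well. Among the 12 were AC025287.3 (0.06 and 0.11 against 0.35 and 0.56 FPKM) and LXLOC_020053 (0.04 and 0.06 against 0.39 and 0.27 FPKM). LXLOC_017558 was at 0.61 FPKM in LM3 JQ1 replicate 2 and at 0 in the other 3 LM3 libraries. Over the 279 loci, LM3 libraries did not overlap in 53, 19 higher and 34 lower with JQ1, where 16.8% and 28.0% of all loci with values did so. The choice held LM3 vehicle near 0, and the 66 loci at 0 in both vehicle libraries could not be lower. These counts therefore describe the loci and give no measure of an LM3 response.

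The loci were bunched along the genome. Joining loci whose start lay within 200 kb of the one before gave 156 clusters, of which 123 held a lone locus and 33 held 2 or more, 30 of them on 1 strand. The 11 clusters with 5 or more held 102 loci, and the 7 with 8 or more held 82, of which 43 were called lower in HepG2. Loci of a cluster are neighbours and are not independent, so clusters were counted too: 122 clusters had a tested locus, 42 had one called lower and 5 had one called higher. With 1 locus a cluster, the highest in HepG2 vehicle, 42 of 121 tested were lower (34.7%) and 5 higher. That pick uses the baseline of the comparison once more. Without the clusters of 5 or more, 37 of 132 were lower (28.0%) and 6 higher. Of all loci tested, 14.2% were lower and 10.8% higher. A cluster counts when any of its loci is called, so these shares of loci are no measure for clusters.

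The largest cluster lay on chromosome 4 (133271999 to 133424128, plus strand), 63393 bases from PCDH10, a protocadherin gene. It held 21 LXLOC loci, often nearly end to end, with under 1 kb in 12 of the 20 gaps. The HepG2 median over its loci was 1.11 and 1.03 FPKM with vehicle and 0.46 and 0.45 FPKM with JQ1, and both JQ1 libraries were below both vehicle libraries at all 21. Of 19 tested, 18 were called lower, with log2 fold changes from -1.38 to -0.45 over those tested. Without a filter on low values 8 of the 18 calls were lost, and with replicate blocks 3 were. The level of these loci fell along the strand. LXLOC_041385, near the start, was at 3.15 and 2.94 FPKM with vehicle and 1.11 and 1.12 FPKM with JQ1, while LXLOC_041409, at the end, was at 0.57 and 0.59 FPKM with vehicle and 0.26 and 0.26 FPKM with JQ1. Spearman's rho between order along the strand and vehicle mean was -0.90 over the 21 loci, which share their libraries, and -0.76 over all 26 loci of the span with the 5 described next. Vehicle levels also chose the loci. With the HepG2 JQ1 mean, which took no part in the choice, the rho over the 21 loci was -0.55. LXLOC_041384, the first, was below its neighbour at 1.52 and 1.07 FPKM and kept the smallest share of its vehicle level with JQ1, 14.7%, where the median over the cluster was 40.8%.

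Within the same span and strand, 5 more LXLOC loci were above 0.5 FPKM in HepG2 vehicle and were left out because LM3 vehicle was at 0.1 FPKM or more. LXLOC_041399 was at 2.75 and 2.32 FPKM in HepG2 vehicle and at 2.40 and 2.67 FPKM in LM3 vehicle, with JQ1 levels of 2.17 and 2.45 FPKM in HepG2 and 1.94 and 2.73 FPKM in LM3. Its neighbours on either side, LXLOC_041398 and LXLOC_041400, were at 0.88 and 0.86 FPKM and at 1.09 and 1.05 FPKM in HepG2 vehicle and at no more than 0.02 FPKM in any LM3 library. LXLOC_041402 was likewise present in both lines, at 2.84 and 2.37 FPKM in HepG2 vehicle and 2.04 and 1.97 FPKM in LM3 vehicle.

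**Figure D5:**
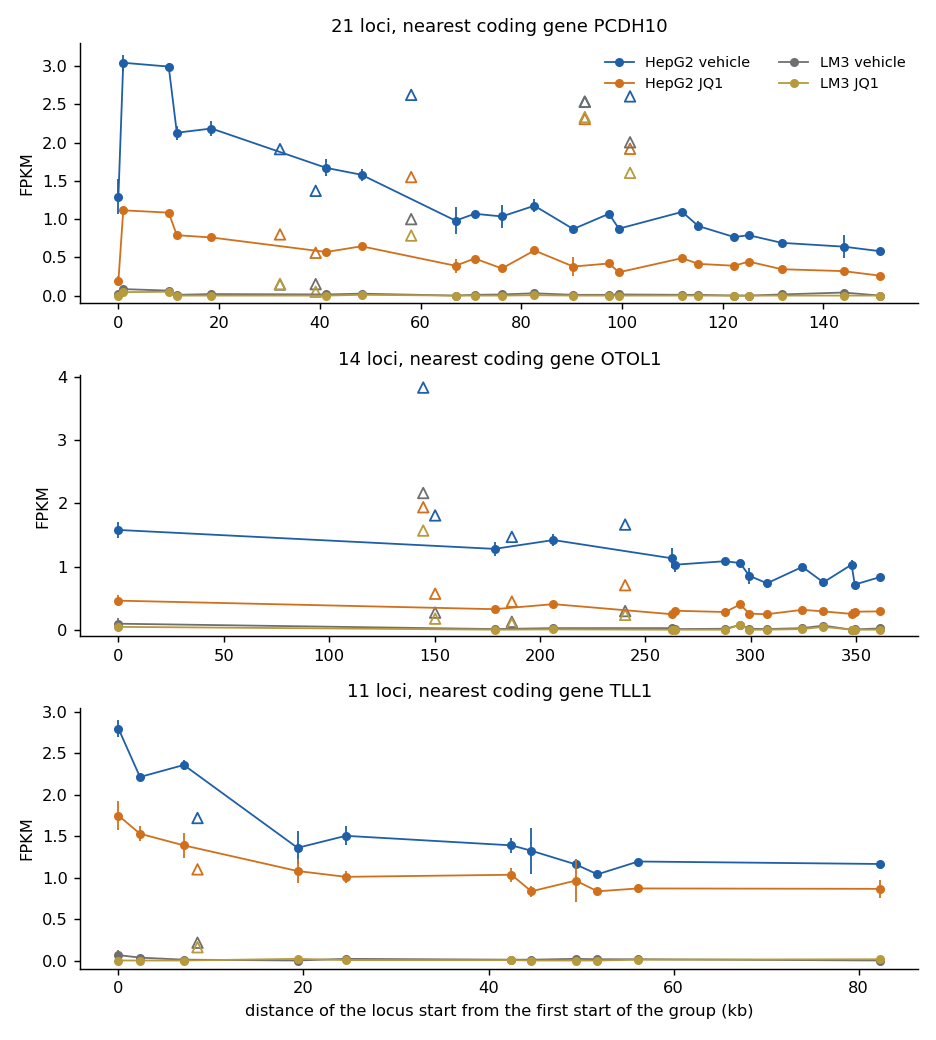
FPKM of the loci in the 3 largest clusters against the distance (kb) of the locus start from the first start of the cluster, by line and treatment; filled points are means of 2 libraries, vertical lines join the 2 libraries, and open triangles are loci of the same span and strand that were left out by the LM3 limit. In each cluster, filled points of HepG2 vehicle are higher near the start than at the end, apart from the first locus at PCDH10. HepG2 JQ1 levels lie below them. Among the triangles, that of LXLOC_041399 at PCDH10 is as high in LM3 vehicle as in HepG2 vehicle.

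The next cluster, on chromosome 3 (161600438 to 161965731, plus strand) and 96496 bases from OTOL1, a gene of the inner ear matrix, held ENSG00000288087 and 13 LXLOC loci. Its median was 1.10 and 0.965 FPKM with vehicle and 0.29 and 0.305 FPKM with JQ1, and the groups did not overlap at any of the 14. All 13 tested loci were called lower, and 6 of these calls were lost without a filter on low values. ENSG00000288087, the first and longest, went from 1.71 and 1.45 to 0.55 and 0.37 FPKM (log2 fold change -1.12, SE 0.14, limma adjusted p = 0.0116), and the last, LXLOC_038531, from 0.84 and 0.83 to 0.31 and 0.27 FPKM. Order and vehicle level had a rho of -0.86 over the 14 loci and -0.90 over all 18 of the span. Order and HepG2 JQ1 level had a rho of -0.44 over the 14 loci. The JQ1 level was 21.7% to 39.9% of the vehicle level. Of 4 loci in the span left out by the LM3 limit, LXLOC_038514 was at 4.27 and 3.40 FPKM in HepG2 vehicle and 2.12 and 2.21 FPKM in LM3 vehicle.

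The cluster next in size, again on chromosome 4 (166198183 to 166451359, plus strand) and 94288 bases from TLL1, the gene of a tolloid-like metalloprotease, showed a smaller difference. Its 11 LXLOC loci had medians of 1.56 and 1.20 FPKM with vehicle and 0.94 and 1.08 FPKM with JQ1. Limma called 3 of 11 lower, the first 3 along the strand: LXLOC_041644, which spans the whole cluster, went from 2.90 and 2.70 to 1.93 and 1.57 FPKM, LXLOC_041645 from 2.24 and 2.19 to 1.44 and 1.62 FPKM, and LXLOC_041646 from 2.42 and 2.30 to 1.54 and 1.24 FPKM. All 3 calls were lost without a filter on low values, and that of LXLOC_041645 also with replicate blocks. The JQ1 level was 58.9% to 83.2% of the vehicle level over the cluster, and order and vehicle level had a rho of -0.89, or -0.92 over all 12 loci of the span. Order and HepG2 JQ1 level had a rho of -0.88 over the 11 loci. LXLOC_041644 overlaps all the others, so reads may have been shared among them.

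Other large clusters did not respond alike. On chromosome 13, all 5 loci of a cluster that overlaps the protocadherin gene PCDH9 were lower, with medians of 1.22 and 1.20 FPKM against 0.35 and 0.39 FPKM. This cluster has loci on both strands, and reads of PCDH9 cannot be told apart from those of a locus over it on its strand. At SLC10A2, the ileal bile acid transporter gene, 397698 bases away on chromosome 13, 3 of 10 were lower, of which 2 lost the call without a filter on low values, though the libraries of all 10 did not overlap. On chromosome 6, 92595 bases from the serotonin receptor gene HTR1B, none of 9 was called, with medians of 0.66 and 0.60 FPKM with vehicle and 0.78 and 0.83 FPKM with JQ1, and 4 loci had JQ1 libraries above both vehicle libraries. None of 8 loci on chromosome 11, 952328 bases from the synaptic adhesion gene LRRC4C, was called either, with medians of 0.79 and 0.59 FPKM against 0.58 and 0.635 FPKM. Differences between clusters were not tested.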

How the data were processed

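Total RNA of 8 libraries was analysed from FPKM values that the authors deposited in 1 table for each line, per the file headers. The submitters' processing notes list Bowtie 0.12.2, hg19 and mm8 and assign them no role; the counting tool is not given in the sources used here. Coordinates are GRCh38: of 61 chosen loci found in GENCODE 29, 100% had the same chromosome and 82.0% the same start. Of 23161 loci, 7692 with a dash for all values were left out. JQ1 was compared with vehicle within each line in limma 3.58.1 (R 4.3.3, trend and robust) on log2(FPKM + 0.5), two-sided, for loci averaging 0.5 FPKM or more in that line, with Benjamini-Hochberg adjustment over all loci tested and a threshold of 0.05. Fold changes on this scale understate those of low loci. With FPKM alone, counting error is unknown.

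The loci, lists, tests and naming rule were chosen with earlier results of these data known. Named were loci among the highest, the largest changes with groups that did not overlap, members of the 7 lncRNA lists and neighbours of genes on 3 coding lists (171 genes), the 3 largest clusters, loci next to the thresholds and those highest in LM3 JQ1; the microRNA hosts, the loci lowest in HepG2 JQ1, the remaining rises, the loci left out within clusters and the other clusters were picked after their values were seen. Alternatives were other pseudocounts, filters and scalings, replicate blocks and libraries left out. The fit was tested on simulated data. Tables and figures were made with pandas 2.3.3, matplotlib 3.10.9 and NumPy 2.4.6 in Python 3.11.15. Some results are not reported here.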

Additional observations from a re-analysis of the deposited data

Results flagged for a closer look

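AC243830.2 (chromosome 17, 36634069 to 36634698, plus strand) had JQ1 libraries below vehicle in HepG2 and above vehicle in LM3. In HepG2 it was at 0.44 and 0.71 FPKM with vehicle and at 0.23 FPKM in both JQ1 libraries, while in LM3 it was listed at 0 in both vehicle libraries and was at 0.26 and 0.04 FPKM with JQ1, a mean of 0.15 FPKM. Both vehicle levels were used to choose the loci, and a locus at 0 in LM3 vehicle can only be higher with JQ1, so the opposite directions are a description. It entered the main test in neither line, was not called in HepG2 with the filter on the vehicle mean, and the difference between the lines was not tested.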

How the results depend on the processing

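The number of the 279 loci called in HepG2, 94 with 88 lower and 6 higher, was 45 without a filter on low values (41 lower) and 45 with a filter at a mean of 1 FPKM (40 lower). Leaving out 1 library gave 0 to 40 called, 0 to 39 lower and 0 to 4 higher. In alternatives chosen after seeing the data, 1 locus a cluster gave 47 called (42 lower), and leaving out clusters of 5 or more gave 43 (37 lower). Pseudocounts of 0.1 and 1, centred libraries, quantile normalization and limma without trend or robust fitting gave 92 to 96. The labels do not say whether replicate numbers pair the samples. Replicate deviations correlated at -0.035 in HepG2 and 0.135 in LM3, which cannot decide whether samples were paired. With the replicate block 95 were called, 87 of them shared. In LM3 the 1 call became 4 without a filter and 0 without any 1 library; filters on a mean of 1 FPKM and on the vehicle mean left no locus. Limits of 1 and 0.05 FPKM kept 91 loci, and 0 FPKM in both LM3 vehicle libraries 66. Loci near a listed coding gene numbered 10 within 200 kb and 2 among 186 clear of overlaps. Among loci not called, the log2 fold change turned sign when 1 library was left out. LXLOC_058290 ran from -2.38 (without HepG2 vehicle replicate 2, where it was called) to 0.29 (without replicate 1), and LXLOC_013511 from -0.33 to 1.76 (without vehicle replicates 2 and 1). LXLOC_060644 ran from -0.27 to 0.19 and LXLOC_041653 from -0.46 to 0.052 (without JQ1 replicates 2 and 1), and LXLOC_060644 was at 0.067 without vehicle replicate 1. The cause was not tested for any of these.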

Other observations

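Chromosome 4 held 43 of the 279 loci (15.4%), against 3.61% of all loci with values and 2.84% of the other loci in HepG2, and 12 of the 156 clusters. Chromosome 3 held 24 loci in 5 clusters and chromosome 13 held 18 in 4. On chromosome 19, a cluster of 5 loci 4076 bases from TNFAIP8L1 had JQ1 libraries above both vehicle libraries at 3 loci, with none called in limma; its medians were 1.16 and 1.40 FPKM with vehicle and 1.13 and 1.69 FPKM with JQ1.

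Some symbols were not described above and were picked after their values were seen. STIM1-AS1 was at 0.70 and 0.45 FPKM with vehicle and 0.87 and 0.94 FPKM with JQ1, and STIM2-AS1 at 0.59 and 0.42 against 1.34 and 0.76 FPKM (limma adjusted p = 0.115 and 0.113), neither of them called. LXLOC_009566, antisense to STIM1 like STIM1-AS1, went the other way, at 1.76 and 1.79 FPKM with vehicle and at 1.32 and 1.56 FPKM with JQ1. ISL1-DT, divergent from the LIM homeobox gene ISL1, was at 0.46 and 0.67 against 0.69 and 0.65 FPKM and at 0 in every LM3 library. RAB17-DT was at 0.50 and 0.62 against 0.27 and 0.24 FPKM and likewise at 0 in LM3, and did not enter the main test.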
